A study of Homo sapiens with 6 samples.

Results

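The genes described here are 48 type I interferon-stimulated genes, chosen by name as well-known members of the interferon response. The rule uses no measured value, but the set was drawn up with earlier results of these data known. They are rows of a table of 15706 genes from MDA-MB-231 cells, a mesenchymal-like human line from a breast carcinoma that lacks hormone receptors and HER2 amplification. Each of the 48 symbols was found in that table, and 47 had a mean of at least 10 normalized counts and were tested. The exception was IRF9.

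RNA-seq was compared between 3 control libraries, labelled wild type and carrying a non-targeting guide RNA (sgNT), and 3 libraries labelled as MLL3 knockout (sgMLL3). MLL3, approved symbol KMT2C, is a histone H3 lysine 4 methyltransferase that acts at enhancers. Both groups were untreated cells of the same line, grown with serum and without added interferon as far as the labels say. The labels number the libraries of each group #1 to #3 and as biological replicates 1 to 3. They do not state whether the libraries came from clones, pools or separate cultures, or whether those of a group carry the same guide. The p-values therefore measure the spread between these libraries. By its title the series concerns metastasis and cell states between epithelial and mesenchymal after MLL3 loss.

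Type I interferons bind a receptor made of IFNAR1 and IFNAR2, whose kinases JAK1 and TYK2 pass the signal on. STAT2 and IRF9 then act in a complex that binds a DNA element, the interferon-stimulated response element, in the promoters of target genes. The targets include sensors of viral RNA, proteins that block viral entry, translation or release, and the signalling proteins themselves. Many tumour cell lines express a share of these genes without added interferon.

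Promoter windows of the members are shown first because the response element is what most of them have in common. RefSeq windows (GRCh38.p14) of 250 bases before to 50 bases after a transcription start were found for 39 members, DDX58 under its approved symbol RIGI. The letters GAAA, any 2 bases (NN) and GAAA again, searched on both strands with overlaps allowed, were in at least 1 window of 28 of the 39 (71.8%), against 4.06% of 11021 tested genes with a window and 3.57% of 35116 windows in all. A match is a description of letters and not a shown binding site. Of the members called higher below, 5 of 6 with a window held the letters, and of those called lower, 8 of 10. The letters were thus found on either side of the comparison. The stretches below run 5′ to 3′ along the gene's strand, lie before the transcription start, and have the matched letters in capitals. The first 3 belong to members that were higher in the knockout libraries (DDX60 at chr4:168318776-168318860, minus strand; SAMD9 at chr7:93118086-93118135, minus strand; PARP14 at chr3:122680790-122680838, plus strand).
DDX60: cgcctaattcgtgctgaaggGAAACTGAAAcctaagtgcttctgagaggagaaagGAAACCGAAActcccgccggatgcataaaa
SAMD9: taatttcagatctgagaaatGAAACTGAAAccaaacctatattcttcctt
PARP14: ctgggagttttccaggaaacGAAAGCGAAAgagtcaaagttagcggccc

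The next 4 belong to members that were lower (ISG15 at chr1:1013364-1013419, plus strand; BST2 at chr19:17405725-17405780, minus strand; IFI27 at chr14:94110608-94110670, plus strand; TRIM14 at chr9:98119223-98119268, minus strand). In ISG15 and BST2 the matches overlap and form 1 longer run, and TTTC repeats in capitals are matches on the other strand.
ISG15: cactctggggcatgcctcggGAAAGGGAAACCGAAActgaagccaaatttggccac
BST2: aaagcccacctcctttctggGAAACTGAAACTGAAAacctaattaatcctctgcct
IFI27: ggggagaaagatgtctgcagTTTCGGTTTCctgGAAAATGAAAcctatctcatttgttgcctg
TRIM14: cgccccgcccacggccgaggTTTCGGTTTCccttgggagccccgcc

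IFIT1 (at chr10:89392487-89392549, plus strand) is shown as a member that was not called. The DDX58 window held no match.
IFIT1: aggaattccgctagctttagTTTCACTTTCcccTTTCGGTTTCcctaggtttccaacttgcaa

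Recovered reads, that is, normalized counts divided by the step that 1 read is worth in a library, numbered 41240265 to 49514464 per library. KMT2C, the targeted gene, was read at 1367, 1379 and 1255 in the control libraries and 1519, 1659.9 and 1339 in the knockout libraries (log2 fold change 0.17, SE 0.10, limma adjusted p = 0.2), so its transcript gave no check of the label, and knockout refers to the label throughout. The cell line's markers VIM, CD44, EGFR, CAV1 and AXL summed to 130090.4 to 133541 normalized counts in control and 120939 to 127472 in knockout libraries, CDH1 lay between 2.11 and 7.52, and ESR1 and PGR were not among the rows used here. ERBB2 was read at 4581 to 6016 counts, EPCAM at 765 to 999 and KRT8 at 45859 to 55702. Of 10 leukocyte markers 6 were in the table, with sums of 985 to 1355 in control and 697 to 931 in knockout libraries. LYZ lay between 1.07 and 10.8, and CD14 was lower (-0.69, SE 0.24, limma adjusted p = 0.032). CD14 was read at 194, 410 and 482 in the control libraries and 209, 197 and 222 in the knockout libraries. Its control replicate 1 thus lay below every knockout library. Of 7 fibroblast and endothelial markers 5 were in the table, with sums of 1107 to 1263 in control and 827 to 913 in knockout libraries, and PDGFRB (-0.48, SE 0.11, limma adjusted p = 0.0046) and COL1A1 (-0.55, SE 0.18, limma adjusted p = 0.027) were lower. For COL1A1 the groups overlapped. Within the cell line's markers CAV1 was higher (0.27, SE 0.086, limma adjusted p = 0.024) and AXL lower (-0.28, SE 0.078, limma adjusted p = 0.012). With the GC and length trend described below removed, CD14, PDGFRB, COL1A1, CAV1 and AXL did not pass (limma adjusted p = 0.28, 0.091, 0.21, 0.075 and 0.097). VIM (-0.20, limma adjusted p = 0.024) and PTPRC (-0.76, limma adjusted p = 0.013) were lower in that fit. The part of these markers in the results was not tested.

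Levels below are the authors' normalized read counts, given for replicates 1, 2 and 3 in that order, with means ± SD (n = 3 libraries in either group). Each log2 fold change is knockout minus control on the log2(count + 1) scale from limma, a linear model across genes, with its standard error (SE) and Benjamini-Hochberg adjusted p over 14618 genes. A gene is called higher or lower at an adjusted p under 0.05. In this data set the fold change followed the GC content of the transcript across genes. The limma fit was therefore repeated after that trend and the trend along transcript length were subtracted from every library (trend removed).

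The interferon-stimulated genes split between directions. Higher in the knockout libraries were 7 members, led by the RNA sensor DDX58, and lower were 12, among them ISG15, BST2 and the oligoadenylate synthetases OAS1, OAS3 and OASL. Called were thus 40.4% of the 47, against 33.2% of all genes tested. Those higher made up 14.9%, against 18.9% of all genes, and those lower 25.5%, against 14.4%. The groups did not overlap in 23 members (48.9%), 10 higher and 13 lower, against 46.3% of all genes (23.9% higher and 22.4% lower). Their median log2 fold change was 0.022, beside -0.017 for all genes tested, and single members ranged from -1.09 to 0.83. With the trend removed 1 member was higher (2.13%, against 4.08% of all genes) and 1 lower (2.13%, against 5.95%), so that 4.26% were called, against 10% of all genes. They were DDX58 and TRIM14, which were also called before removal. At an unadjusted p under 0.05 there were 17 members then and 25 before. The groups did not overlap in 34.0% of members, 6 higher and 10 lower, against 30.9% of all genes (13.2% higher and 17.7% lower). The median was -0.12, beside -0.018 for all genes, with 15 members above 0 and 32 below. The authors' deposited table called 9 members higher and 12 lower, among them the 19 called here, in the same directions. On recovered reads edgeR called 7 higher and 12 lower (40.4%, against 33.6% of all genes, 18.3% higher and 15.3% lower). DESeq2 called 10 higher and 11 lower of 46 (45.7%, against 36.6% of all genes, 20.3% higher and 16.3% lower).

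Of the 19 calls, those of DDX58, PARP14, IFI35 and TRIM14 stood without any 1 of the 6 libraries, and 15 were lost without at least 1. Without control replicate 1, 13 members were higher and 13 lower (55.3% called, against 42.2% of all genes in that fit). Without control replicate 2 the counts were 6 and 5 (23.4%, against 25.2%), and without control replicate 3 they were 4 and 3 (14.9%, against 21.6%). Leaving out knockout replicate 1 gave 2 and 4 (12.8%, against 14.7%), knockout replicate 2 gave 3 and 3 (12.8%, against 17.1%), and knockout replicate 3 gave 8 and 7 (31.9%, against 33.7%).

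**Figure D1:**
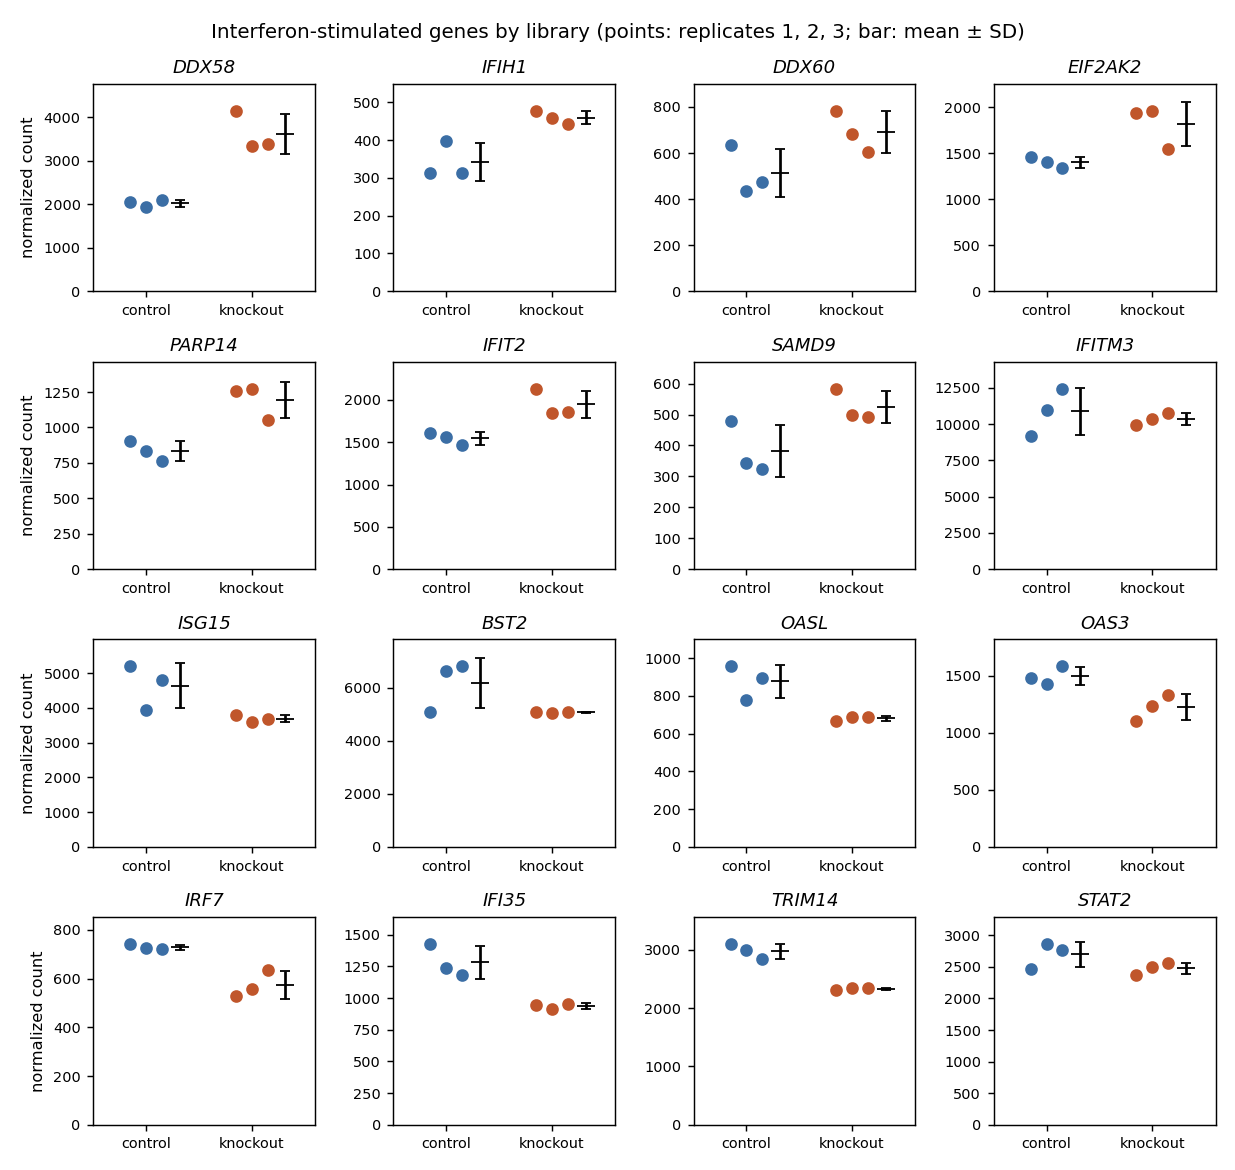
Normalized counts (y axis, linear from 0) of 16 members in the 3 control (blue) and 3 knockout (orange) libraries, with replicates 1, 2 and 3 from left to right and the mean ± SD as a black bar. DDX58 lies between 1939 and 2098 in control and between 3343 and 4154 in knockout libraries, whereas IFITM3 and STAT2 overlap between the groups.

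Among the sensors of foreign RNA, DDX58 changed most. It encodes RIG-I, a cytoplasmic helicase that recognises viral RNA ends and signals through MAVS (chromosome 9, 32455705 to 32526324, minus strand, GRCh38). Its counts were 2048, 1939 and 2098 in the control libraries and 4154, 3343 and 3382 in the knockout libraries, with no overlap. It rose from 2028 ± 81.5 to 3626 ± 457, that is, by 0.83 (SE 0.096, limma adjusted p = 3.8e-05) on the log2 scale, and was 0.48 (adjusted p = 0.005) with the trend removed. DDX58 passed in 23 of 23 alternative analyses, at 0.41 to 0.89 and adjusted p of 0.0455 or less.

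IFIH1 encodes MDA5, the related sensor of long double-stranded RNA. It was read at 313, 398 and 312 in the control libraries and 477, 459 and 441 in the knockout libraries, and every knockout library lay above every control library. Its difference of 0.44 (SE 0.14, limma adjusted p = 0.021) shrank to 0.21 (adjusted p = 0.28) with the trend removed, and the call was lost without control replicate 3, or without knockout replicate 1 or 2 (adjusted p up to 0.089). DDX60, a helicase described as a cofactor of RIG-I, was read at 633, 436 and 472 in the control libraries and 784, 684 and 603 in the knockout libraries. Here control replicate 1 lay above knockout replicate 3, so the groups overlapped. DDX60 was called higher at 0.44 (SE 0.14, limma adjusted p = 0.027) and was 0.022 (adjusted p = 0.94) with the trend removed, and its call was lost without control replicate 2 or 3, or without knockout replicate 1 or 2 (adjusted p up to 0.15). Its neighbour and paralog DDX60L lay higher in each knockout library (939, 879 and 912 in the control libraries and 1105, 1105 and 1010.2 in the knockout libraries) but did not pass (0.24, SE 0.10, limma adjusted p = 0.075). DDX60L turned, after trend removal, to -0.19 (adjusted p = 0.14), lower in each knockout library. How reads that match both paralogs were counted is not given in the sources used here.

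EIF2AK2, which encodes the double-stranded RNA-dependent kinase PKR that halts translation, was read at 1462, 1407 and 1336 in the control libraries and 1944, 1965 and 1544 in the knockout libraries. The groups did not overlap, although knockout replicate 3 lay close to control replicate 1. Its change of 0.37 (SE 0.10, limma adjusted p = 0.013) turned to -0.082 (adjusted p = 0.51) with the trend removed, and the call was lost without knockout replicate 1 or 2 (adjusted p up to 0.097). ZBP1, a sensor of Z-form nucleic acids, was near the limit of detection at 6.34 to 19.5 counts and was not called (-0.41, SE 0.50, limma adjusted p = 0.56). In total 4 of 6 members of this group were higher and none lower by limma, and 1 of 6 was higher with the trend removed. Of all genes 18.9% were higher, or 4.08% with the trend removed. DDX58, IFIH1, DDX60, DDX60L and EIF2AK2 lie below the median GC content of all genes (48.5%), where 36.9% of genes were higher.

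Of 4 oligoadenylate synthetase genes, a family that makes the second messenger activating RNase L, 3 were lower (14.4% of all genes were). OAS1, OAS3 and OAS2 lie side by side on chromosome 12 (112906777 to 113011723), and OASL, which lacks that enzyme activity, lies apart on the same chromosome. OAS3 was read at 1479, 1425 and 1579 in the control libraries and 1105, 1234 and 1331 in the knockout libraries, without overlap, and fell by 0.29 (SE 0.10, limma adjusted p = 0.033) on the log2 scale. OASL was read at 956, 779.7 and 894 in the control libraries and 665, 688 and 688 in the knockout libraries, again without overlap, and fell by 0.36 (SE 0.11, limma adjusted p = 0.02) on the log2 scale. OAS1 was scarce, at 38.8, 34.4 and 42.5 in the control libraries and 22.2, 23.9 and 10.1 in the knockout libraries. Its log2 fold change was -1.09 (SE 0.39, limma adjusted p = 0.04), the lowest of the 47, and rests on few reads. OAS2 was not called, at -0.28 (SE 0.14, limma adjusted p = 0.13), and its groups overlapped. After removal of the trend, OAS1 stood at -1.07 (adjusted p = 0.1), OAS3 at -0.18 (adjusted p = 0.13), OASL at -0.27 (adjusted p = 0.089) and OAS2 at -0.33 (adjusted p = 0.15). The 4 values stayed below 0, and none passed (5.95% of all genes were lower). OAS3 and OASL lie above the median GC content of all genes (48.5%), where 27.2% of genes were lower as deposited. OAS1 and OAS2 lie below it, where 1.56% were. The call of OAS3 was lost without control replicate 2 or 3, or without knockout replicate 1 or 2 (adjusted p up to 0.17), that of OASL without control replicate 3, or without knockout replicate 1 or 2 (adjusted p up to 0.078), and that of OAS1 without control replicate 2 or 3, or without knockout replicate 1 or 3 (adjusted p up to 0.15).

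The signalling members differed in level. STAT2, a subunit of the complex that interferon activates, was read at 2467, 2855 and 2762 in the control libraries and 2377, 2493 and 2552 in the knockout libraries and was not called (-0.12, SE 0.088, limma adjusted p = 0.3). IRF7, the factor that amplifies interferon production, fell from 728 ± 10.4 to 574 ± 56.5, with 740.1, 724 and 721 in the control libraries and 528, 556 and 637 in the knockout libraries and no overlap. Its log2 fold change was -0.35 (SE 0.11, limma adjusted p = 0.027), and -0.10 (adjusted p = 0.5) with the trend removed, and the call was lost without control replicate 2 or 3, or without knockout replicate 1 or 2 (adjusted p up to 0.12). At 66.8% its transcript has the highest GC content among the members tested. IRF9 stood at 5.39, 12.9 and 1.93 in the control libraries and 2.11, 0.886 and 4.59 in the knockout libraries, too low to test, far below STAT2. In GENCODE 29, 48.4% of the exonic bases of IRF9 are also exons of another gene model on the same strand (AL136295.5), and so are 44.2% of those of IFNAR2 and 38.1% of those of IL10RB (AP000295.1), whose means were 21.2 and 42.1 counts. How reads shared by overlapping genes were counted is not given in the sources used here, and its part in these low levels was not tested.

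ISG15 is a ubiquitin-like protein that is attached to other proteins by a cascade in which UBE2L6 is the conjugating enzyme and HERC5 the ligase, and removed by USP18. ISG15 itself was read at 5189, 3939 and 4789 in the control libraries and 3806, 3586 and 3682 in the knockout libraries. Every knockout library lay below every control library, and control replicate 2 lay nearest. It fell from 4639 ± 638 to 3691 ± 110.5, that is, by 0.32 (SE 0.096, limma adjusted p = 0.017) on the log2 scale, and was -0.038 (adjusted p = 0.83) with the trend removed. The call was lost without knockout replicate 2 (adjusted p up to 0.081). The enzymes were not called: UBE2L6 stood at -0.20, HERC5 at 0.26, HERC6 at 0.049 and USP18 at -0.23. UBE2L6 (GC content 57.2%) and HERC5 (44.1%) lay on opposite sides of 0, and were at 0.026 and 0.081 with the trend removed.

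The IFIT genes, which encode antiviral proteins, lie in 1 cluster on chromosome 10 (89283694 to 89421001). IFIT2 was called higher: it was read at 1607, 1564 and 1462 in the control libraries and 2134, 1844 and 1859.8 in the knockout libraries, without overlap, and rose by 0.33 (SE 0.095, limma adjusted p = 0.014) on the log2 scale. Trend removal left it at 0.084 (adjusted p = 0.46), and the call was lost without knockout replicate 1 (adjusted p up to 0.093). IFIT3 was read at 3734, 2732 and 2379 in the control libraries and 3887, 3283 and 3538 in the knockout libraries, and control replicate 1 lay within the range of the knockout libraries. IFIT3 (0.30, SE 0.12, limma adjusted p = 0.072), IFIT5 (0.28, SE 0.11, limma adjusted p = 0.055) and IFIT1 (0.084, SE 0.11, limma adjusted p = 0.59) did not pass, although IFIT5 lay higher in each knockout library. Trend removal turned IFIT5 to -0.14 (adjusted p = 0.24), lower in each knockout library, and IFIT1 to -0.20 (adjusted p = 0.16), and left IFIT3 at 0.14 (adjusted p = 0.46). IFIT3 was called higher without control replicate 1 (adjusted p = 9.5e-05).

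IFITM3 and BST2, which block viruses at membranes, had the highest levels of the set. Per kilobase of the longest transcript, IFITM3 had a mean of 13143 normalized counts, BST2 5525, ISG15 5293 and IFITM2 3020.2. IFITM3, which restricts entry of enveloped viruses, was read at 9210.4, 11001 and 12451 in the control libraries and 9940.2, 10334 and 10780.1 in the knockout libraries, and the groups overlapped (-0.063, SE 0.095, limma adjusted p = 0.64). IFITM1 and IFITM2 were not called either (0.083 and 0.024). After removal of the trend IFITM1, IFITM2 and IFITM3 stood at 0.25, 0.24 and 0.18 (adjusted p = 0.096, 0.066 and 0.18). Each then lay higher in every knockout library than in any control library, and none passed. The 3 genes are paralogs, and 32.5% of the exonic bases of IFITM1 and 22.8% of those of IFITM2 are annotated to both on the same strand. How reads shared by such genes were counted is not given in the sources used here, so these counts are uncertain.

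BST2, or tetherin, which holds budding virions at the cell surface, was read at 5099.6, 6650.1 and 6805 in the control libraries and 5099.0, 5049.6 and 5078.6 in the knockout libraries. Control replicate 1 was thus level with the knockout libraries, and the fall of 0.27 (SE 0.098, limma adjusted p = 0.04) rests on control replicates 2 and 3. Without control replicate 1 the adjusted p was 0.00013, and the call was lost without control replicate 2 or 3, or without knockout replicate 1, 2 or 3 (adjusted p up to 0.17). With the trend removed BST2 stood at -0.03 (adjusted p = 0.88).

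The paired MX genes on chromosome 21 differed. MX1, a dynamin-like GTPase active against influenza and other viruses, was read at 821, 856 and 895 in the control libraries and 738, 662 and 709 in the knockout libraries and fell by 0.29 (SE 0.11, limma adjusted p = 0.046), without overlap. Its call was lost without control replicate 2 or 3, or without knockout replicate 1, 2 or 3 (adjusted p up to 0.21), and it was at -0.18 (adjusted p = 0.21) with the trend removed. MX2, which acts against HIV, was scarce. It was read at 58.2, 102 and 90.8 in the control libraries and 124, 127 and 119 in the knockout libraries, higher in each knockout library, and did not pass (0.59, SE 0.23, limma adjusted p = 0.054). Its value was 0.61 (adjusted p = 0.11) with the trend removed. Without control replicate 2, MX2 passed at an adjusted p of 0.036.

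Among effectors of nucleotide metabolism and translation, SAMD9, a restriction factor of poxviruses, was called higher. It was read at 478, 344 and 326 in the control libraries and 584, 499.8 and 492 in the knockout libraries, and control replicate 1 lay just below knockout replicate 3. The change of 0.47 (SE 0.15, limma adjusted p = 0.022) shrank to 0.018 (adjusted p = 0.95) with the trend removed. The call was lost without control replicate 2 or 3, or without knockout replicate 1 or 2 (adjusted p up to 0.12). At 36.0% its transcript has the lowest GC content of the members. SAMD9L, its neighbour on chromosome 7, stood at 0.24 (SE 0.17, limma adjusted p = 0.29), with overlap, and at -0.20 with the trend removed. RSAD2, which encodes viperin, and its neighbour CMPK2, a mitochondrial nucleotide kinase, were scarce (means of 40.9 and 17.7) and lay near 0 (0.013 and 0.042). ISG20, an exonuclease, stood at -0.12, with control replicate 3 at 511 above the other 5 libraries.

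PARP14, an ADP-ribosyltransferase linked to interferon signalling (chromosome 3, 122680618 to 122730840, plus strand), was the second largest increase among called members. It was read at 904, 837 and 763 in the control libraries and 1258, 1274 and 1049.7 in the knockout libraries, with no overlap, and rose by 0.51 (SE 0.11, limma adjusted p = 0.0024) on the log2 scale. The call stood without any 1 library and was lost with the trend removed (0.20, adjusted p = 0.12). PARP12, an antiviral enzyme of the same family on chromosome 7, went the other way. It was read at 2383, 2298 and 2554 in the control libraries and 2005, 1892 and 2044 in the knockout libraries and fell by 0.28 (SE 0.088, limma adjusted p = 0.021), without overlap. PARP12 was at -0.14 (adjusted p = 0.19) with the trend removed, and its call was lost without control replicate 3, or without knockout replicate 1 or 2 (adjusted p up to 0.13). PARP9 and its partner ligase DTX3L, divergent neighbours of PARP14, were not called (0.29, SE 0.12, limma adjusted p = 0.065; and 0.072, SE 0.12, limma adjusted p = 0.68), although PARP9 lay higher in each knockout library. They were at 0.041 and -0.12 with the trend removed.

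Of the 5 IFI members, 3 were lower (14.4% of all genes were). The 3, IFI6, IFI27 and IFI35, lie above the median GC content of all genes (48.5%), where 27.2% of genes were lower. None of the 5 was called with the trend removed (10% of all genes were). IFI35, which modulates innate signalling, was read at 1424, 1237 and 1181 in the control libraries and 943, 915 and 957 in the knockout libraries, without overlap. It fell by 0.44 (SE 0.10, limma adjusted p = 0.0039) on the log2 scale, a call that stood without any 1 library and was lost with the trend removed (-0.19, adjusted p = 0.24). IFI27, a mitochondrial protein often used as a marker of interferon exposure, was read at 1913, 2505 and 2580.0 in the control libraries and 1985, 1750.3 and 1720.4 in the knockout libraries. Knockout replicate 1 lay above control replicate 1, so the groups overlapped. IFI27 was called lower at -0.35 (SE 0.11, limma adjusted p = 0.023) and was -0.27 (adjusted p = 0.13) with the trend removed. IFI6, an antiviral protein of the endoplasmic reticulum, was read at 431, 485 and 551 in the control libraries and 404, 402 and 335 in the knockout libraries and was called lower at -0.36 (SE 0.14, limma adjusted p = 0.049), or -0.13 (adjusted p = 0.56) with the trend removed. The call of IFI27 was lost without control replicate 2 or 3, or without knockout replicate 2 or 3 (adjusted p up to 0.099) and that of IFI6 without control replicate 2 or 3, or without knockout replicate 1, 2 or 3 (adjusted p up to 0.19). The neighbours IFI44 and IFI44L on chromosome 1 were not called. IFI44 stood at 0.14, and at -0.21 with the trend removed. IFI44L, with 24.8, 23.6 and 24.1 in the control libraries and 16.9, 19.5 and 9.18 in the knockout libraries, lay lower in each knockout library at -0.70 (SE 0.42, limma adjusted p = 0.21), and at -1.13 (adjusted p = 0.087) with the trend removed.

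TRIM14, an adaptor in antiviral signalling that binds MAVS (chromosome 9, 98069275 to 98119212, minus strand), was the member whose decrease passed in both analyses. It was read at 3093, 2998 and 2837 in the control libraries and 2313, 2342 and 2345 in the knockout libraries. The 3 knockout libraries lay within 32 counts of one another and below every control library. TRIM14 fell from 2976 ± 129 to 2334 ± 17.6, that is, by 0.35 (SE 0.084, limma adjusted p = 0.0049) on the log2 scale, and was -0.23 (adjusted p = 0.042) with the trend removed. That second call was lost without control replicate 2 or knockout replicate 1, 2 or 3 (adjusted p up to 0.15). TRIM22, an antiviral ubiquitin ligase, lay in each knockout library lower than in any control library and was not called (-0.20, SE 0.16, limma adjusted p = 0.35; with the trend removed -0.49, adjusted p = 0.064). SP110, a nuclear body protein, the apoptosis regulator XAF1, EPSTI1 and the receptor-transporting protein RTP4 were not called either, at -0.19 to 0.088, and their groups overlapped.

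**Figure D2:**
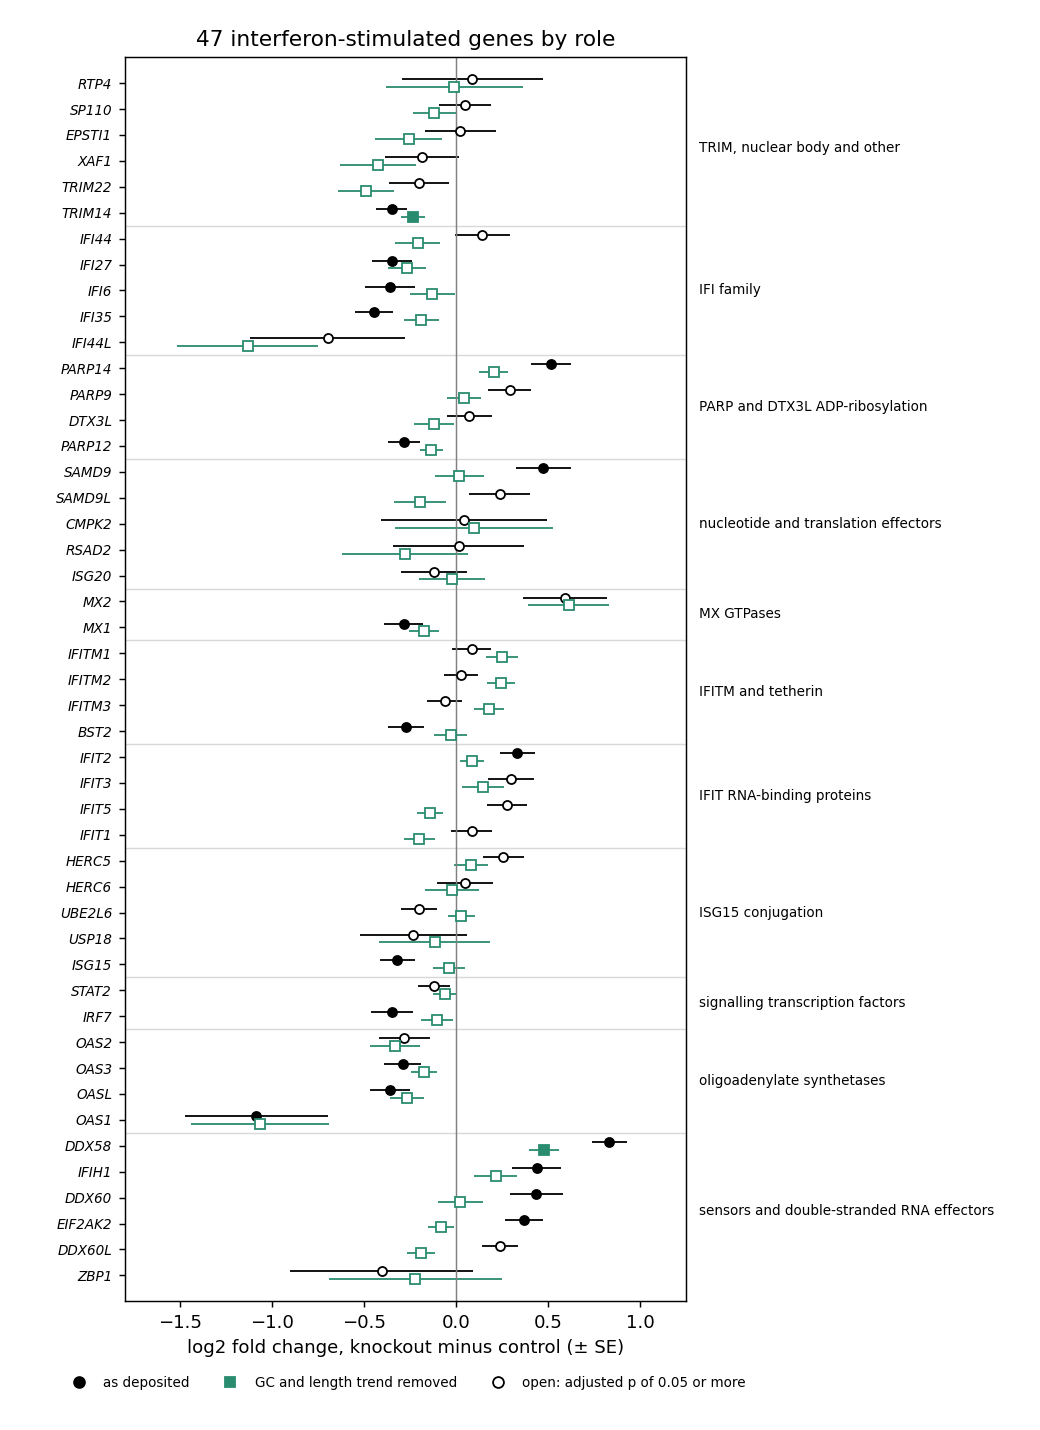
Log2 fold change, knockout minus control (x axis), with its SE for the 47 tested members grouped by role, as deposited (black circles) and with the GC and length trend removed (green squares); filled symbols have an adjusted p under 0.05. The filled black symbols number 7 right and 12 left of 0, and DDX58 and TRIM14 keep filled symbols with the trend removed.

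The direction of the calls followed the base composition of the transcripts. The 7 members called higher had GC contents of 36.0% to 43.3%, and the 12 called lower 48.2% to 66.8%, so the ranges did not overlap. Members called higher also had longer transcripts (median 6071 bases, against 2428 for those called lower). Over the 47 members Spearman's rho between log2 fold change and GC content was -0.63, beside -0.67 over 14598 genes. These points share libraries, so rho is a description and has no test. With the trend removed the rho over members was 0.13. Among the 26 members below the median GC content of all genes (48.5%), 7 were higher and 1 lower, and their median of 0.19 stood beside 0.25 for 7299 genes in that range. Among the 21 members above it, none was higher and 11 were lower, and their median was -0.28, beside -0.20. In that range 0.932% of all genes were called higher and 27.2% lower, and below it 36.9% were higher and 1.56% lower. DDX58, with a GC content of 40.5%, stood at 0.83, whereas the median of all genes in its GC decile was 0.38. After removal the change was smaller in size for each of the 19 called members, and it kept its sign for 18 of them, EIF2AK2 being the exception. Of the 28 members not called, 13 changed sign, so 14 of the 47 did, 12 of them from above to below 0.

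**Figure D3:**
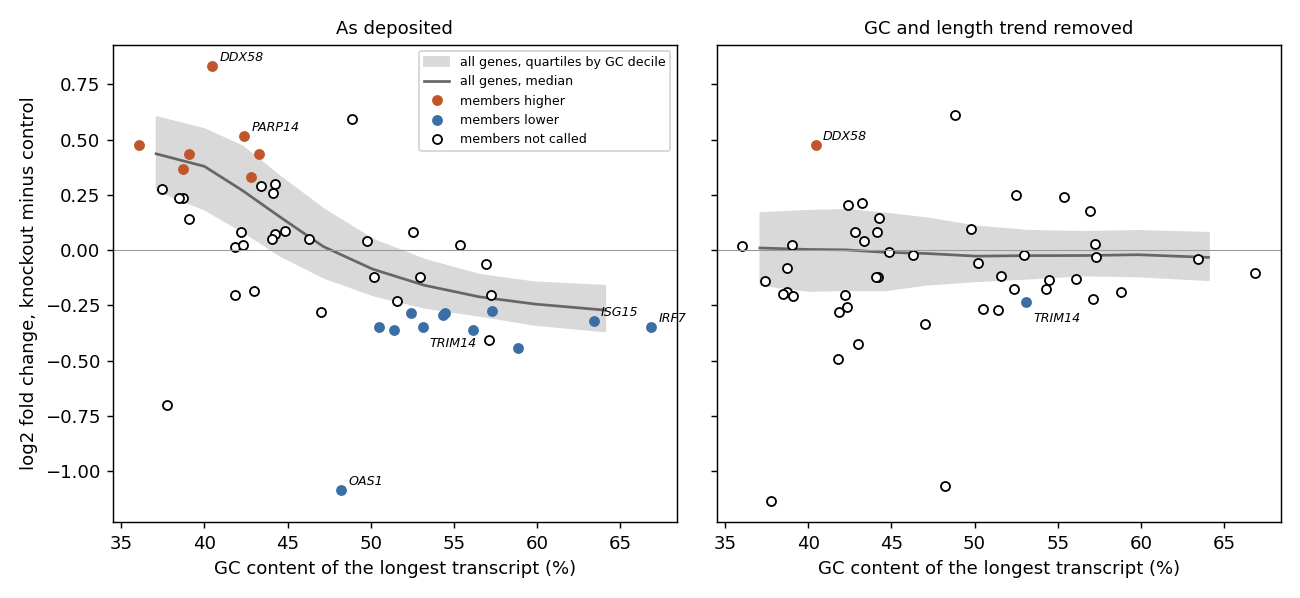
Log2 fold change, knockout minus control (y axis), against the GC content of the longest transcript in percent (x axis) for the 47 members (points) over the median and quartiles of all genes by GC decile (grey). On the left, as deposited, most members lie along the falling grey band (OAS1, IFI44L and MX2 do not) and calls change side between 43.3% and 48.2%; on the right, with the trend removed, DDX58 and TRIM14 are called.

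Libraries of the same group differed too. As deposited, 23 of the 47 members had their highest control value in control replicate 1 (40.2% of all genes did). The highest was in replicate 2 for 9 (23.7% of all genes) and in replicate 3 for 15 (36.1%). With the trend removed the counts were 18, 11 and 18 for replicates 1, 2 and 3 (40.3%, 26.5% and 33.2% of all genes). The following counts are as deposited. IFI44 was read at 808, 545 and 525 in the controls, HERC6 at 863, 641 and 502, and IFIT3 and DDX60 were likewise highest in control replicate 1. BST2, MX2 and IFITM3 were lowest there. The members' median deviation from the mean of the 6 libraries lay between -0.035 and 0.099 on the log2 scale in any library, and between -0.053 and 0.057 with the trend removed. Summed over the 48 members, libraries held 63998 to 66658 normalized counts in the control and 62833 to 65699 in the knockout group, which overlap.

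**Figure D4:**
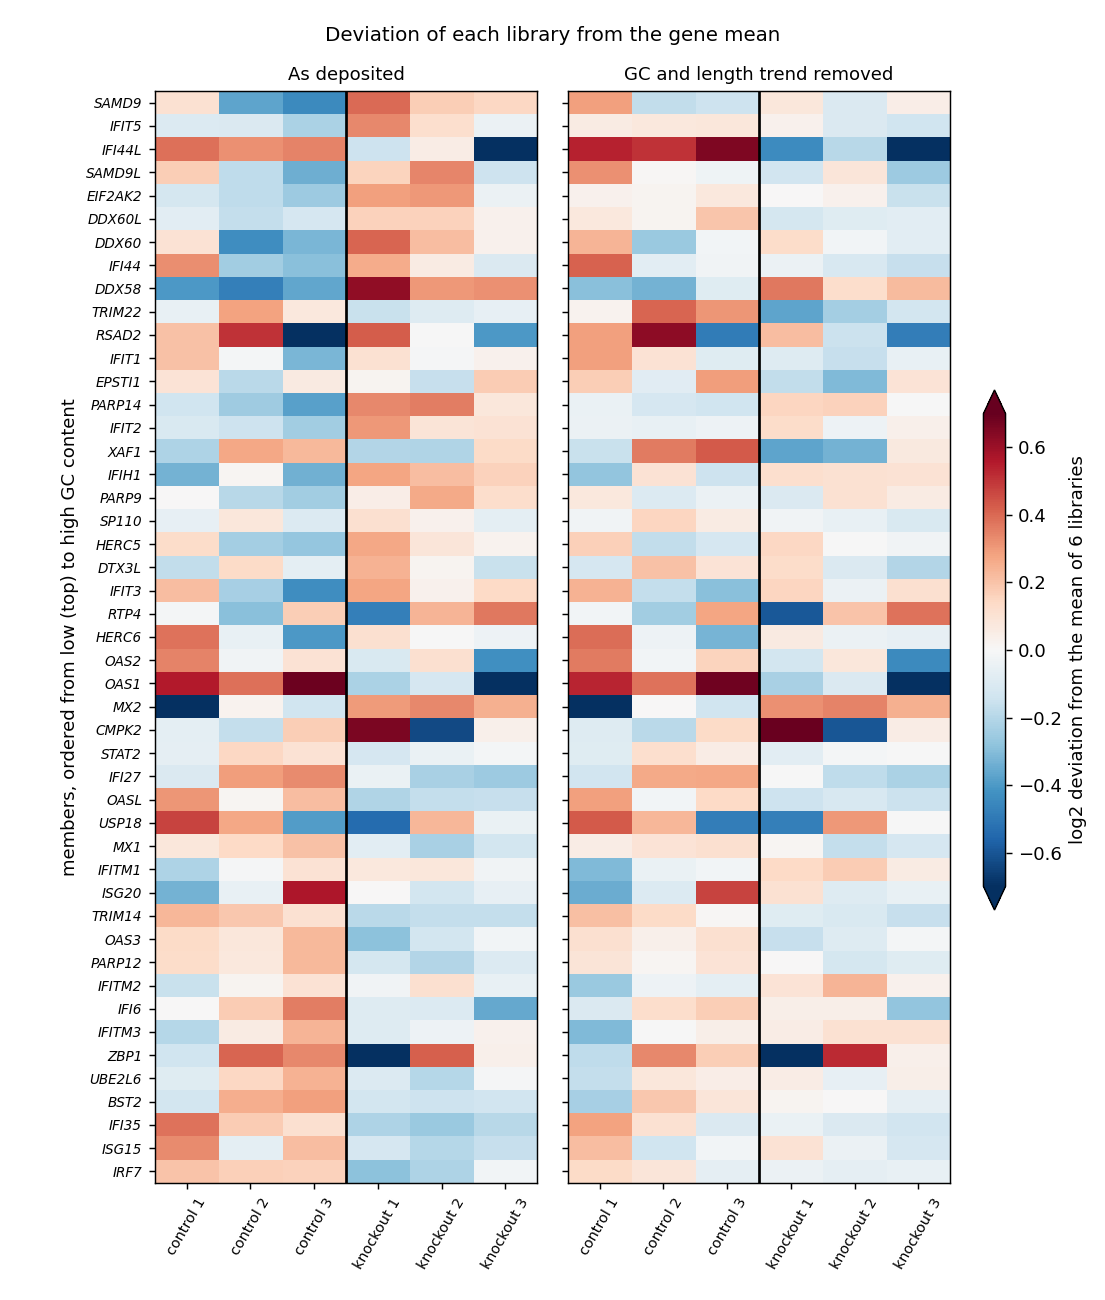
Deviation of each library (columns) from the mean of the 6 libraries on the log2 scale (red higher, blue lower) for the 47 members, ordered from low GC content at the top to high at the bottom, as deposited and with the trend removed. As deposited, many low-GC members are bluer in control and redder in knockout libraries and many high-GC members the reverse (not IFI44L, TRIM22 or XAF1), and DDX58 keeps this contrast on the right.

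Neighbouring members lay on 1 side of 0 as deposited in some clusters and not in others. In the cluster of 4 IFIT genes the log2 fold changes were 0.084 to 0.33, and with the trend removed IFIT1, IFIT2, IFIT3 and IFIT5 were at -0.20, 0.084, 0.14 and -0.14. PARP9, DTX3L and PARP14 (chromosome 3, 122527924 to 122730840) were at 0.072 to 0.51, and at 0.041, -0.12 and 0.20 with the trend removed. DDX60 and DDX60L were at 0.24 to 0.44, and at 0.022 and -0.19. The 3 OAS genes were at -1.09 to -0.28 as deposited and stayed below 0, at -1.07, -0.33 and -0.18 for OAS1, OAS2 and OAS3. The MX pair (-0.29 and 0.59), the IFI44 pair (-0.70 and 0.14) and the IFITM genes (-0.063 to 0.083) held values on either side as deposited. With the trend removed MX1 and MX2 stayed on opposite sides (-0.18 and 0.61). IFI44L and IFI44 were then both below 0 (-1.13 and -0.21), and IFITM1, IFITM2 and IFITM3 above it (0.25, 0.24 and 0.18).

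Other genes of the pathway, from lists drawn up by function, gave the surroundings of these members. Of 81 listed genes 70 were in the table and tested, 13 were higher (18.6%, against 18.9% of all genes) and 16 lower (22.9%, against 14.4%). After trend removal 3 were higher (4.29%, against 4.08%) and 7 lower (10%, against 5.95%). The interferon genes IFNB1, IFNA1, IFNA2, IFNE, IFNK, IFNL1, IFNL2 and IFNL3 were not among the rows used here. Of 8 receptor, JAK and STAT genes tested 2 were higher and none lower. IFNAR1, a receptor chain, was read at 1718, 1753 and 1539 in the control libraries and 2558, 2443 and 2049.8 in the knockout libraries and was higher by 0.49 (SE 0.10, limma adjusted p = 0.0017). JAK1 was higher by 0.21 (SE 0.081, limma adjusted p = 0.049). With the trend removed IFNAR1 stood at 0.19 (adjusted p = 0.11) and JAK1 at 0.13 (adjusted p = 0.16). The call of JAK1 was lost without control replicate 2 or 3, or without knockout replicate 1, 2 or 3 (adjusted p up to 0.19).

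Upstream, in nucleic acid sensing, 4 of 21 genes were higher and 8 lower (18.9% and 14.4% of all genes were). With the trend removed the counts were 1 and 3 (4.08% and 5.95% of all genes). MAVS, the mitochondrial adaptor through which RIG-I and MDA5 signal, was read at 8348, 9013 and 9137 in the control libraries and 6516, 7432 and 6951 in the knockout libraries. It fell by 0.34 (SE 0.08, limma adjusted p = 0.0043) without overlap, and was -0.30 (adjusted p = 0.005) with the trend removed, so it passed in both. TRIM25, a ubiquitin ligase that activates RIG-I, fell by 0.27 (SE 0.079, limma adjusted p = 0.015) and was -0.21 (adjusted p = 0.024) with the trend removed, and its first call was lost without control replicate 2, or without knockout replicate 1 or 2 (adjusted p up to 0.091). The second was lost without control replicate 2 or 3, or without knockout replicate 1, 2 or 3 (adjusted p up to 0.13). PNPT1, a mitochondrial RNA exonuclease, was read at 1120.3, 1063 and 1103 in the control libraries and 2066, 1839 and 1605 in the knockout libraries. It rose by 0.74 (SE 0.10, limma adjusted p = 9.7e-05) and was 0.39 (adjusted p = 0.011) with the trend removed, so it passed in both. With the trend removed the calls of DDX58 and MAVS stood without any 1 library, and that of PNPT1 was lost without knockout replicate 1 or 2 (adjusted p up to 0.081).

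STING1, the adaptor of DNA sensing, was lower at -0.46 (SE 0.13, limma adjusted p = 0.015), or -0.27 (adjusted p = 0.19) with the trend removed, with the call lost without control replicate 2 or 3, or without knockout replicate 1 or 2 (adjusted p up to 0.068). DHX58, which encodes the RIG-I-like regulator LGP2, was lower at -0.42 (SE 0.13, limma adjusted p = 0.018), or -0.20 (adjusted p = 0.23) with the trend removed, with the call lost without control replicate 3, or without knockout replicate 1 or 2 (adjusted p up to 0.11). The kinase TBK1 (0.41) and its adaptors TANK (0.35) and AZI2 (0.52) were higher, and gave 0.034, -0.029 and 0.10 once the trend was removed, none of them called. TANK lost its call without knockout replicate 1 or 2 (adjusted p up to 0.096).

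Negative regulators gave 3 higher and 2 lower of 9 (18.9% and 14.4% of all genes were). None was called with the trend removed (10% of all genes were). The phosphatases PTPN2 (0.50, SE 0.097, limma adjusted p = 0.0011) and PTPN11 (0.50, SE 0.085, limma adjusted p = 0.00044) and the STAT inhibitor PIAS1 (0.56) were higher. The feedback inhibitor SOCS3 (-0.31, SE 0.089, limma adjusted p = 0.015) and the corepressor IRF2BP1 (-0.35) were lower. SOCS3 lost its call without knockout replicate 1 or 2 (adjusted p up to 0.084), and IRF2BP1 without control replicate 3, or without knockout replicate 1 or 2 (adjusted p up to 0.084).

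Further interferon-stimulated genes outside the 48 gave 4 higher and 6 lower of 32 (18.9% and 14.4% of all genes were). With the trend removed they gave 2 and 4 (4.08% and 5.95% of all genes). IFI16, a nuclear DNA sensor, rose from 2284 ± 101 to 3504 ± 332 (0.61, SE 0.09, limma adjusted p = 0.00014) and SP100, a nuclear body protein, from 2327 ± 48.4 to 3272 ± 166 (0.49, SE 0.084, limma adjusted p = 0.00044). After trend removal they were called at 0.21 (adjusted p = 0.039) and 0.23 (adjusted p = 0.036). Those calls were lost for IFI16 without control replicate 2 or 3, or without knockout replicate 1, 2 or 3 (adjusted p up to 0.19) and for SP100 without control replicate 2, or without knockout replicate 1, 2 or 3 (adjusted p up to 0.16). PML, which organises the same nuclear bodies, was lower (-0.43, SE 0.092, limma adjusted p = 0.0023), as were the transcription factor IRF1 (-0.44, SE 0.10, limma adjusted p = 0.0045) and the helicase HELZ2 (-0.40, SE 0.093, limma adjusted p = 0.0045). These 3 also passed in the trend-removed fit, at -0.25, -0.34 and -0.22 (adjusted p = 0.021, 0.027 and 0.03). There the call was lost for PML without control replicate 2, or without knockout replicate 1 or 2 (adjusted p up to 0.12), for IRF1 without control replicate 2 or 3, or without knockout replicate 1, 2 or 3 (adjusted p up to 0.12) and for HELZ2 without control replicate 2 or 3, or without knockout replicate 1, 2 or 3 (adjusted p up to 0.13). NCOA7 (0.64) and NT5C3A (0.51) were higher and PARP10 (-0.41) lower as deposited, and gave 0.29, 0.11 and -0.19 once the trend was removed, not called.

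**Figure D5:**
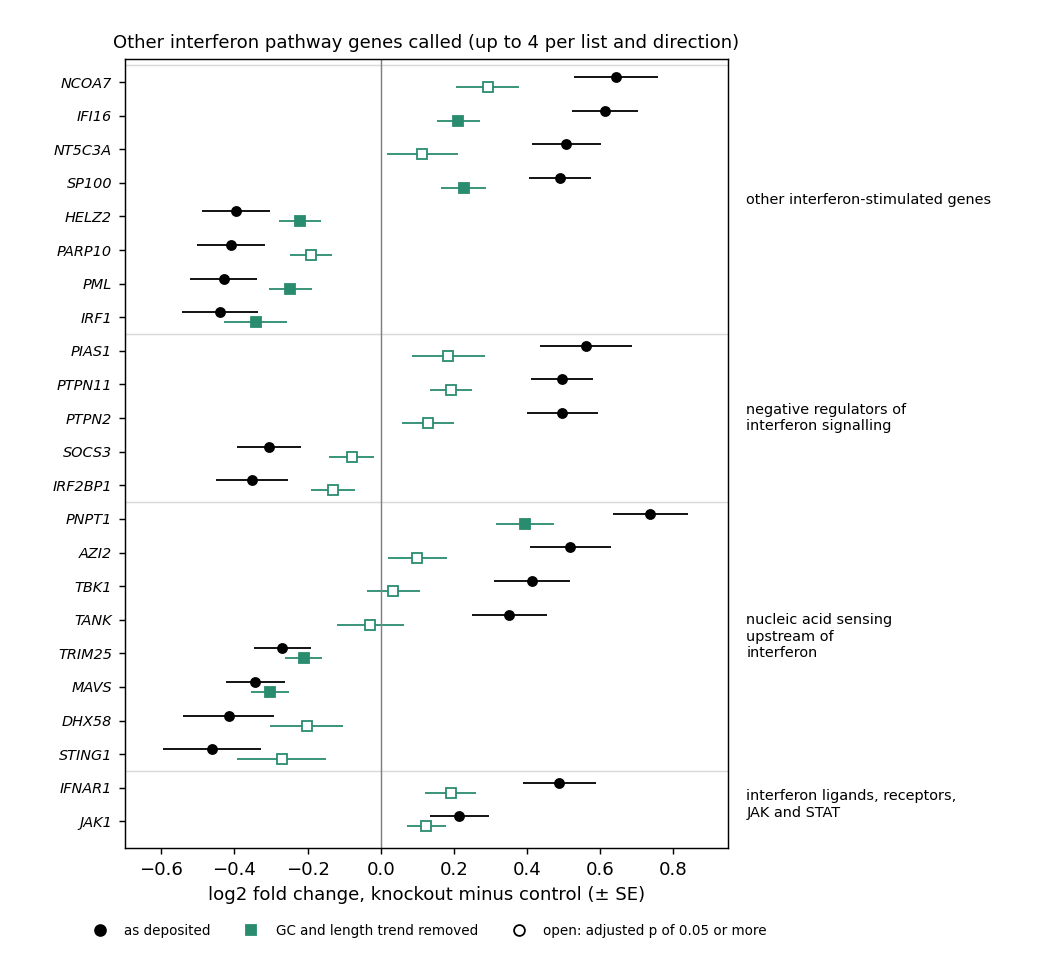
Log2 fold change, knockout minus control (x axis), with its SE for the called genes of 4 pathway lists, up to 4 per list and direction, as deposited (black circles) and with the trend removed (green squares); filled symbols have an adjusted p under 0.05. MAVS, TRIM25, PNPT1, PML, SP100, IFI16, HELZ2 and IRF1 keep filled squares.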

How the data were processed

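The authors deposited a single table with a normalized read count per gene and library, a signal obtained by dividing reads by a size factor of the library. The deposited table also gives, per the file headers, a log2 fold change, a Wald statistic, which is a score, and a p-value with its adjusted form. The submitters' processing notes name STAR 2.4.0 as aligner, featureCounts 1.5.0, DESeq2 1.30.1, FastQC and GRCh38.p13. No annotation or strand setting is given in the sources used here. Row numbers run to 19211, so some rows are not analysed here.

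In each library 100% of values lay within 0.01 of a whole multiple of 1 step, and these multiples are the recovered reads. limma 3.58.1 (R 4.3.3, trended prior variance, two-sided) compared 3 with 3 libraries on log2(count + 1) for 14618 genes with a mean of at least 10. Trend removal, for 14598 genes, subtracted natural splines with 5 terms each of GC percent and log2 transcript length (GENCODE 29; 15681 IDs matched). Alternatives, among them edgeR 4.0.16 and DESeq2 1.42.0, stand in the closing section. Scripts were tested on simulated data. Members, lists and tests were chosen with earlier results of these data known. Named first were called members, the 5 most abundant and 4 most changed uncalled ones, and up to 4 called genes per pathway list and direction; other genes were named after their values were seen. Depth limits members under 50 counts, of which 6 were tested. One gene of a pathway list is not reported here.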

Additional observations from a re-analysis of the deposited data

How the results depend on the processing

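Across 23 alternative analyses the call of DDX58 stood, and that of TRIM14 stood in 19. Pseudocounts of 0.5 and 5, no filter, a minimum mean of 50, TMM scaling, edgeR and DESeq2 kept the counts of members and of pathway genes in either direction within 1.5 times those reported. With the GC and length trend removed, 1 member was higher and 1 lower, and 3 other pathway genes were higher and 7 lower. Of all genes 10% were called. The median of the members was then -0.12, and 14 of the 47 members changed sign. Among genes named by rule these were EIF2AK2 (-0.082), IFITM3 (0.18) and UBE2L6 (0.026), and outside the members TANK (-0.029). Quantile normalization left 4 members higher (8.51%, against 16.2% of all genes) and 11 lower (23.4%, against 15.4%). The median of the members was then -0.030 and IFITM3 stood at 0.022.

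The labels do not say that equal replicate numbers share a day or culture, so the numbers were not taken to pair the libraries. Deviations of same-numbered libraries correlated at 0.066, 0.0063 and 0.13 for replicates 1, 2 and 3. Control replicates 1 and 3 correlated best with their same-numbered knockout library, and control replicate 2 with knockout replicate 1 (0.027). These correlations do not settle whether the libraries are paired. With a replicate block 12 members were higher and 11 lower (22.2% and 20.7% of all genes were). Other pathway genes gave 15 higher and 25 lower. In that fit 42.9% of all genes were called, against 33.2% without the block. With the block and the trend removed, 1 member was higher and 1 lower, while 8.99% of all genes were called. There 1 other pathway gene was higher and 6 lower. The median of the members was -0.12, and the signs of EIF2AK2 (-0.082), IFITM3 (0.18), UBE2L6 (0.026) and TANK (-0.029) were as without the block.

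Leaving out each library in turn, as deposited or with the trend removed, gave 1 to 13 members higher and 0 to 13 lower, 0 to 16 other pathway genes higher and 2 to 21 lower, and medians of -0.12 to 0.015. Over the same fits 2.6% to 42.2% of all genes were called. The share was 2.13% to 55.3% for the members and 2.86% to 52.9% for the other pathway genes. The counts were largest without control replicate 1, as was the share of all genes called (42.2%, or 24.7% with the trend removed). Single genes were followed through these fits only where they were named by rule. Among those, signs changed in at least 1 of these fits for BST2 (-0.41 to 0.057), DDX60 (-0.10 to 0.60), EIF2AK2 (-0.12 to 0.48), IFITM2 (-0.048 to 0.29), IFITM3 (-0.18 to 0.24), ISG15 (-0.43 to 0.061), SAMD9 (-0.064 to 0.65), TANK (-0.14 to 0.41), UBE2L6 (-0.30 to 0.072) and ZBP1 (-0.72 to 0.17). The cause was not tested.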

Other observations

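RNASEH2B and PLSCR1 were lower with the trend removed and not called before it. RNASEH2B, a subunit of the RNase that removes RNA from DNA hybrids, stood at 0.035 (SE 0.099, limma adjusted p = 0.81) as deposited and at -0.38 (adjusted p = 0.0056) with the trend removed. PLSCR1, a phospholipid scramblase with antiviral activity, stood at 0.043 (SE 0.11, limma adjusted p = 0.79) and -0.31 (adjusted p = 0.033).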
